A study of Mus musculus with 12 samples.

Results

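The 10 tubulin genes described here are the alpha tubulins Tuba1a, Tuba1b, Tuba1c and Tuba4a and the beta tubulins Tubb2a, Tubb2b, Tubb3, Tubb4b, Tubb5 and Tubb6. They were chosen by name as the alpha and beta tubulins whose mRNAs are subject to autoregulation during translation, and all 10 were found among the 20661 genes of the count files. RNAseq and ribosome profiling were performed on mouse embryonic fibroblasts (MEFs), cells grown from mouse embryos, at passage 4. The cells were transduced with a lentiviral short hairpin RNA, either the control shSCR or shARF, which was made against the tumor suppressor ARF, a product of the Cdkn2a gene. WT-shSCR and WT-shARF cells carry the strain label C57BL/6J, and Arf-/- shSCR cells the label B6.129X1-Cdkn2atm1Cjs/KaiJ, in which exon 1β of Cdkn2a is replaced by a neo cassette. Each of the 3 groups had 2 replicates in each of 2 assays, which makes 12 libraries.

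The Arf-/- allele is present in every cell of the embryo and the control cells come from other embryos, so that the effect of the knockout cannot be told apart from that of the strain. The strain in the label of the WT cells differs from the one in the study's methods. All groups carry a lentiviral hairpin and were selected with puromycin. The labels do not say whether the replicates came from separate embryos or cultures, and the p-values then measure only the spread between these samples.

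Alpha and beta tubulin form the dimer from which microtubules are built, and each is made by a family of genes with very similar products. Cells hold the amount of free dimer steady in part by degrading tubulin mRNA while it is translated. TTC5 recognizes the opening residues of a nascent alpha or beta tubulin chain at the ribosome exit when free dimer is abundant, and through SCAPER it recruits the CCR4-NOT deadenylase, whose subunit CNOT11 is needed for this contact. In fibroblasts microtubules support cell shape, transport and, during division, the mitotic spindle. Because autoregulation acts on mRNA that is being translated, both the RNA level and the ribosome footprint level of the tubulin genes are of interest, together with their ratio, the translation efficiency (TE).

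The signal that autoregulation reads is encoded at the start of the coding sequence, so the first 30 coding bases are shown for 9 of the genes, read from the transcripts of the GENCODE M21 annotation (mouse assembly GRCm38). Capitals mark the first 4 codons.
Tuba1a: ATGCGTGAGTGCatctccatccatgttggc
Tuba1b: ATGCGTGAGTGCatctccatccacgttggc
Tuba1c: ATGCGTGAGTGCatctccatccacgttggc
Tuba4a: ATGCGCGAGTGCatttcagtccatgtgggg
Tubb2a: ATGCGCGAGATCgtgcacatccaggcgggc
Tubb2b: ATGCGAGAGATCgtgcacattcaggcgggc
Tubb3: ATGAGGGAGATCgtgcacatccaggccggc
Tubb4b: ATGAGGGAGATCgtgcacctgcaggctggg
Tubb5: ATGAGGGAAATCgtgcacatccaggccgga
Tuba1a, Tuba1b and Tuba1c have the same 12 bases in capitals, and Tubb3 and Tubb4b share theirs. In each of the 4 alpha tubulin genes the first coding exon holds only the 3 bases of the start codon, while in each of the 6 beta tubulin genes it holds 57 coding bases.

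The similarity of the genes decided how many reads could be counted. The reads were 17 to 34 nt long by the RNAseq protocol, and alignments to more than 1 place were not counted. The coding sequences of Tuba1a and Tuba1b were 98.3% identical, those of Tuba1b and Tuba1c 97.9%, and those of Tubb2a and Tubb2b 96.5%. Among all annotated transcripts, only 29 of the 1326 places at which a 28-nt read can start in the coding sequence of Tuba1b gave a sequence that no other gene holds. The longest run of such places in Tuba1b was 23, and a sequence from this run, at coding positions 943 to 970, is shown with the same positions of its neighbours. The base that differs is in capitals.
Tuba1a: tgctgcctgctGtaccgtggtgatgtgg
Tuba1b: tgctgcctgctAtaccgtggtgatgtgg
Tuba1c: tgctgcctgctGtaccgtggtgatgtgg
They lie at chr15:98950420-98950447 on the minus strand, chr15:98931968-98931995 on the minus strand and chr15:99037602-99037629 on the plus strand of GRCm38, in this order, each in a coding exon. Against Tuba1b, both neighbours carry A954G, counted from the A of the start codon, and this base alone tells a read over the window apart.

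By this measure 2.19% of the start positions were unique in Tuba1b, 4.77% in Tuba1c and 5.96% in Tuba1a, against 89.2% in Tuba4a. Among the beta tubulin genes the share was 19.9% in Tubb4b and 22.5% in Tubb2b, with Tubb2a next above them, and it was 92.3% in Tubb6, 93.5% in Tubb3 and 94.3% in Tubb5. The value of Tubb4b depends on its annotated pseudogenes, since it was 98.3% when only the genes in the count files were searched. By the search of all annotated transcripts, only a minority of positions in Tuba1a, Tuba1b, Tuba1c, Tubb2a, Tubb2b and Tubb4b could give counted reads. For Tubb4b this depends on whether the alignment also placed its reads on the pseudogenes. Where the counted reads lie was not examined. The counts of these genes are uncertain in a way that the error between replicates does not show.

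**Figure D1:**
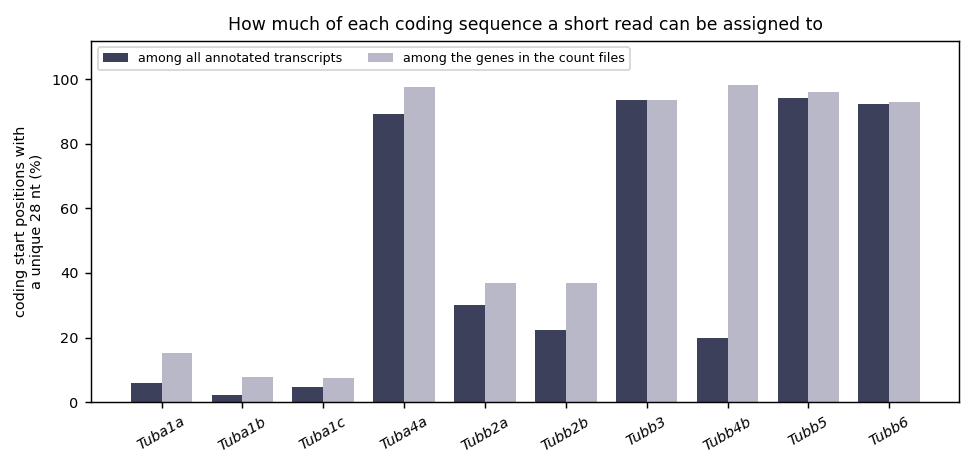
Share of coding start positions whose 28 nt occur in no other gene, in percent, for the 10 tubulin genes. Dark bars search all annotated transcripts and light bars only the genes in the count files. Tuba1a, Tuba1b and Tuba1c have the 3 lowest dark bars, at 2.19% to 5.96%, and Tubb4b is the gene whose bars differ most, at 19.9% and 98.3%.

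Counts on genes summed to 1578627 to 3989908 in the RNAseq libraries and 2544319 to 5157572 in the ribosome profiling libraries. Cdkn2a, the targeted gene, checked the labels. Its RNA was 44.8 and 41.4 CPM (counts relative to the effective library size, set between the 6 libraries of an assay) in WT-shSCR cells, 27.7 and 32.4 CPM in Arf-/- shSCR cells, and 638 and 678 CPM in both libraries labelled WT-shARF. It was thus higher, not lower, under the hairpin against it, with a log2 fold change of 3.91 ± 0.16 (SE, n = 2 per group; edgeR, adjusted p = 5.57e-18), so each direction below is given by the label only, and "under the shARF label" means in these libraries. Counts on Cdkn2a include Ink4a, which shares exons with Arf, and they do not measure protein. The study reported knockdown of ARF protein in MEFs with this hairpin by immunoblot, which these counts cannot check. All 10 fibroblast markers were detected in every group, and their summed RNA level was 21350 to 24467 CPM in WT-shSCR cells, 22082 to 22449 CPM under the shARF label and lowest, at 16352 to 17465 CPM, in Arf-/- shSCR cells. The single markers went both ways in RNA after knockout. Fn1 was lower (log2 -1.49 ± 0.16), Col3a1 (0.90 ± 0.15) and Pdgfra (2.38 ± 0.53) were higher, and no other fibroblast marker was called. The summed RNA level of 8 macrophage markers was 477 to 484 CPM in WT-shSCR cells, 164 to 228 CPM under the shARF label and at most 72.2 CPM in Arf-/- shSCR cells, and none of the 8 was at 0 in any group. The 9 neuron markers summed to 3.82 to 14.2 CPM in RNA, with Rbfox3, Dcx, Snap25 and Elavl4 at 0 in WT-shSCR cells. The 4 endothelial markers summed to 21.6 to 35.0 CPM, with Cdh5 at 0 in WT-shSCR and Arf-/- shSCR cells. The 7 epithelial and mesothelial markers summed to 55.7 to 176 CPM, highest in Arf-/- shSCR cells.

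The 10 genes took 0.473% and 0.466% of the RNA counts on genes in WT-shSCR cells, 0.556% and 0.551% in the libraries labelled WT-shARF, and 0.603% and 0.642% in Arf-/- shSCR cells. The footprint shares were 0.492% and 0.498% in WT-shSCR cells, 0.602% and 0.613% under the shARF label, and 0.635% and 0.655% in the knockout. The order of the 3 groups in this share was thus the same in both assays, with no overlap between the groups. In CPM the alpha tubulin RNA summed to 682 and 593 in WT-shSCR cells and 667 and 661 under the shARF label, which overlapped. The beta tubulin RNA summed to 4318 and 4097 CPM against 4697 and 4566 CPM. Under the shARF label the RNA log2 fold change was 0.04 ± 0.13 (SE) for the alpha sum and 0.12 ± 0.13 for the beta sum.

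Tubb5, the main beta tubulin of most dividing cells, had the highest level of the family by CPM. To compare genes, the CPM were divided by length. Per kb of coding sequence, the RNA level in WT-shSCR cells was 1975 ± 82.3 (SD, n = 2) CPM per kb for Tubb5, 540 ± 8.70 for Tubb4b, a widely expressed beta tubulin, and 472 ± 18.5 for Tubb6. The remaining genes followed at 229 ± 40.3 for Tuba1a, 146 ± 5.57 for Tuba1b and 75.3 ± 2.40 for Tubb3, a beta tubulin best known as a neuronal marker. Tuba4a was at 54.2 ± 6.23, Tubb2b at 46.7 ± 7.36, Tubb2a at 44.1 ± 1.73 and Tuba1c at 42.2 ± 5.88 CPM per kb, and the values of the 2 replicates overlapped between neighbours in this order.

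That order changed when the length was counted only over start positions with a unique 28 nt. Tuba1b was then first, at 6819 ± 260 (SD, n = 2) CPM per unique kb, before Tuba1a at 3924 ± 690, Tubb4b at 2774 ± 44.7 and Tubb5 at 2139 ± 89.1. The alpha tubulins made up 66.5% of the summed level by this length and 13.0% by coding length, and Tubb5 12.2% and 54.5%. With only the genes in the count files searched, the alpha share was 53.8% and the Tubb5 share 27.7%. The deposited counts therefore do not settle which alpha or beta tubulin is the most abundant. The order among Tubb5, Tubb6, Tubb3 and Tuba4a, in which at least 89.2% of positions are unique, was the same with either length.

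**Figure D2:**
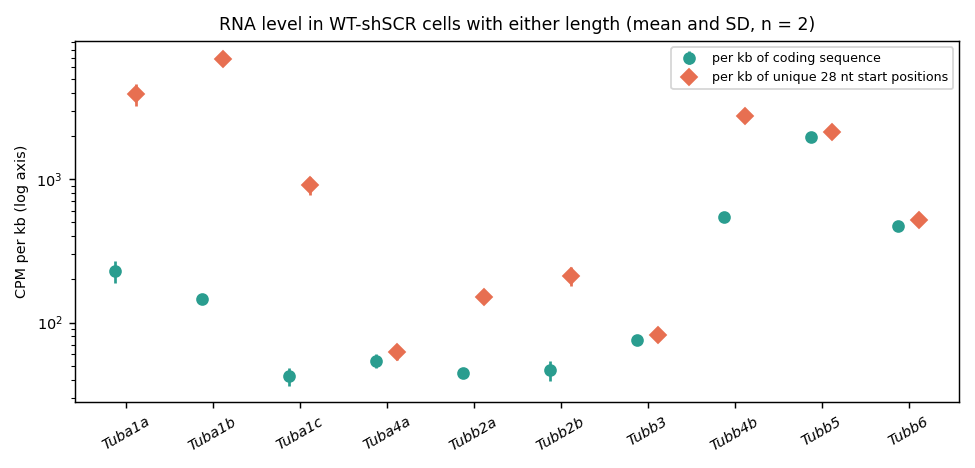
RNA level of the 10 tubulin genes in WT-shSCR cells in CPM per kb on a log axis, as mean and SD of 2 replicates. Circles divide by the coding length and diamonds by the number of unique start positions. The points of Tubb5, Tubb6, Tubb3 and Tuba4a nearly coincide, while Tuba1b moves from 146 to 6819 CPM per kb.

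To find out whether tubulin mRNA levels differ after Arf knockout, the RNA of Arf-/- shSCR and WT-shSCR cells was compared. Tuba1b rose and Tuba4a fell, and the other 8 genes did not pass the test. Tuba1b, a widely expressed alpha tubulin, was at 203 and 192 CPM in WT-shSCR cells and at 309 and 392 CPM in Arf-/- shSCR cells. Both knockout libraries lay above both controls, and the change was a log2 of 0.81 ± 0.16 (SE, n = 2 per group; edgeR, adjusted p = 0.00267), or 1.75-fold. Tuba4a, an alpha tubulin abundant in muscle and platelets, was at 78.7 and 66.9 CPM in WT-shSCR cells and at 38.2 and 51.5 CPM in Arf-/- shSCR cells. Its fall, a log2 of -0.73 ± 0.22 (adjusted p = 0.0492 by edgeR), lay at the edge of the threshold, and it lost its call with DESeq2 (adjusted p = 0.192). The 2 of 10 called stand beside 7.93% of the 10659 genes tested.

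Tubb5 RNA was 2708 and 2553 CPM in WT-shSCR cells and 3408 and 3737 CPM in Arf-/- shSCR cells. The groups did not overlap, but the log2 fold change of 0.43 ± 0.14 had an adjusted p of 0.0671 by edgeR and was not called. It was called without a filter on low counts (adjusted p = 0.0142 by edgeR) and with all groups in 1 fit (0.0296), with a range of 0.000438 to 0.249 over all alternatives. Tubb6, which is induced in regenerating muscle, was at 650.0 and 615 CPM against 764 and 816 CPM, a log2 of 0.31 ± 0.14 (not called). Tubb4b, at 729 and 713 against 820.4 and 956 CPM, differed by a log2 of 0.29 ± 0.14 (not called). The knockout libraries were above the controls in these 3 genes, in Tuba1b and in Tuba1c, and they overlapped the controls in Tuba1a, Tubb2a, Tubb2b and Tubb3. Of all genes tested, 26.3% had both knockout libraries above both controls and 25.3%, as Tuba4a did, had both below. Over the 10 genes the median log2 fold change was 0.24, beside -0.00 over all genes tested. Without WT-shSCR replicate 1 no tubulin gene was called and 222 of all genes were, and without WT-shSCR replicate 2 again none and 236.

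The footprint comparison of the same groups gave 4 calls, all higher in Arf-/- shSCR cells, beside 18.5% of the 10737 genes tested. Tuba1b was at 154 and 223 CPM in WT-shSCR cells and at 337 and 419 CPM in Arf-/- shSCR cells. This was the largest change of the family, a log2 of 0.97 ± 0.13 (edgeR, adjusted p = 1.37e-06) or 1.96-fold, with both knockout libraries above both controls. Tubb5 rose from 2905 and 2865 CPM to 3835 and 3916 CPM, a log2 of 0.39 ± 0.06 (edgeR, adjusted p = 5.43e-06). Its replicates lay close together in either group, and the groups did not overlap. How many of all genes were apart in the footprints of this comparison was not counted. Tubb6 rose from 512 and 514 CPM to 699 and 689 CPM (log2 0.40 ± 0.08), and Tubb4b from 792 and 744 CPM to 884 and 960 CPM (log2 0.23 ± 0.08, edgeR adjusted p = 0.0408).

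Tuba4a footprints were 52.9 and 57.7 CPM in WT-shSCR cells and 40.6 and 41.7 CPM in Arf-/- shSCR cells, a log2 of -0.46 ± 0.19 that was not called (edgeR, adjusted p = 0.0849). The groups did not overlap, which was not counted over all genes, and the sign was that of its RNA. Tubb2a, one of a pair of closely related beta tubulins, was at 87.0 and 59.2 CPM against 61.4 and 51.6 CPM (log2 -0.41 ± 0.18), and its groups overlapped. Its partner Tubb2b was at 88.3 and 82.9 CPM against 101 and 111 CPM (log2 0.27 ± 0.15, not called). Tuba1a, Tuba1c and Tubb3 had log2 fold changes of 0.24, 0.20 and 0.03, none of them called. Summed over the 4 alpha tubulins the footprint log2 fold change was 0.49 ± 0.09, and over the 6 beta tubulins 0.35 ± 0.05, and Tuba1b was the only alpha tubulin called. Without either WT-shSCR footprint library edgeR called 0 genes of all, tubulin genes included, while without either Arf-/- shSCR library 1164 to 1193 genes and 3 or 4 tubulin genes were called.

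In the libraries labelled WT-shARF no tubulin gene passed the test in RNA, beside 7.28% of 10503 genes (765 genes). At an unadjusted p under 0.05, Tuba1b was higher and Tuba4a, Tubb2a and Tubb2b were lower, 4 of 10 genes beside 2215 of all genes. DESeq2 called none of the 10 either. Tuba1b was at 262 and 238 CPM, above the 203 and 192 CPM of WT-shSCR cells, with a log2 of 0.32 ± 0.14 (edgeR, adjusted p = 0.183). Tuba4a was at 48.3 and 49.2 CPM, below the 78.7 and 66.9 CPM of the controls, with a log2 of -0.60 ± 0.19 (edgeR, adjusted p = 0.0534). Tubb2a and Tubb2b were at 44.1 and 44.7 CPM and at 45.7 and 48.7 CPM, each below both controls, with log2 values of -0.42 ± 0.20 and -0.43 ± 0.20. The share of all genes tested that lay apart from the controls in this way was not counted. The median log2 fold change of the 10 genes was -0.00, the same to 2 decimals as over all genes tested. This comparison and that of the knockout share the WT-shSCR libraries.

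Footprints in the libraries labelled WT-shARF gave 5 calls, all higher, beside 11.1% of the 10307 genes tested. Tubb5 was at 3562 and 3625 CPM against 2905 and 2865 CPM in WT-shSCR cells, a log2 of 0.31 ± 0.05 (edgeR, adjusted p = 0.000171). Tubb6 was at 657 and 669 CPM against 512 and 514 CPM (log2 0.36 ± 0.08), and Tubb4b at 904 and 979.6 CPM against 792 and 744 CPM (log2 0.28 ± 0.08). Among the alpha tubulins, Tuba1b was at 263 and 267 CPM against 154 and 223 CPM (log2 0.48 ± 0.12, edgeR adjusted p = 0.00839). Tuba1c was at 100.2 and 102 CPM against 72.1 and 62.7 CPM, a log2 of 0.57 ± 0.16 (edgeR, adjusted p = 0.0171). The groups did not overlap in any of these 5 genes, but how many of all genes tested were apart in this way was not counted. The call of Tuba1c was lost without WT-shSCR replicate 2 or without either library labelled WT-shARF, that of Tubb4b without WT-shARF replicate 2, and that of Tuba1b without WT-shSCR replicate 1.

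**Figure D3:**
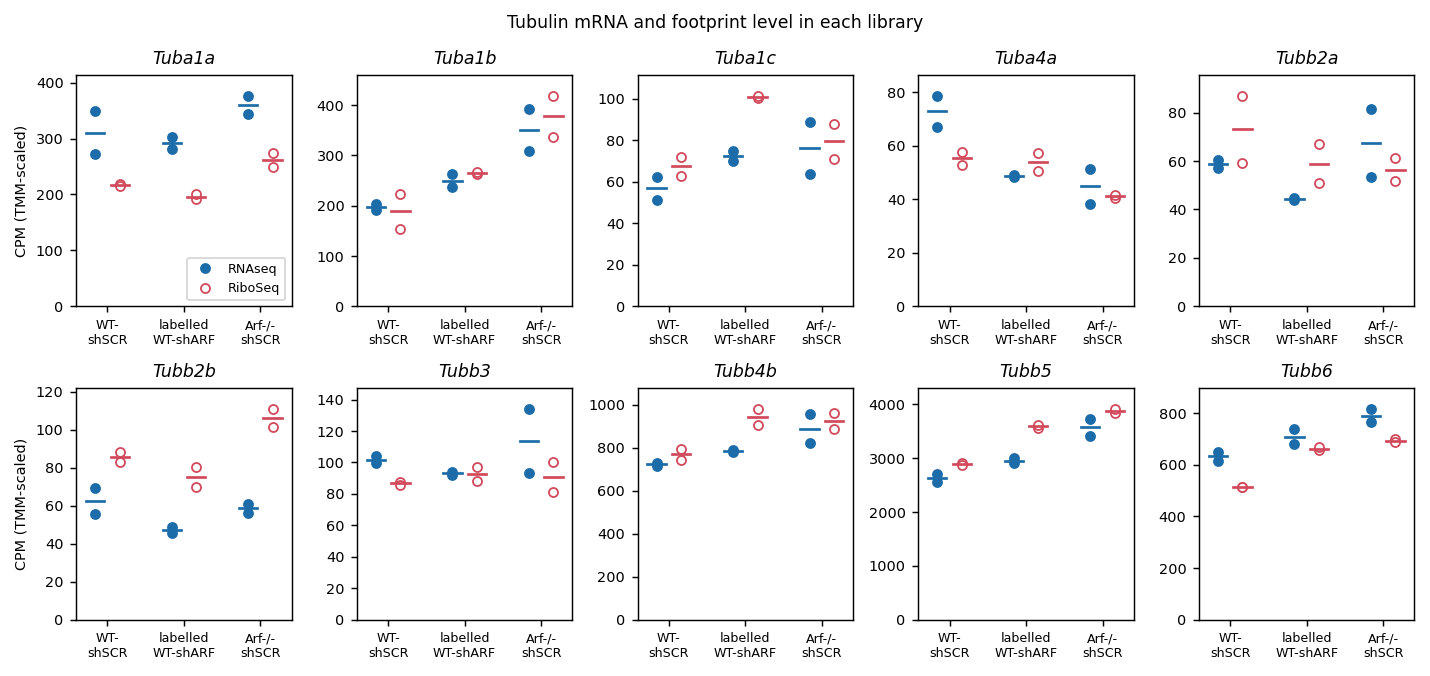
Level of each tubulin gene in CPM (linear axis from 0) in the 12 libraries, with RNAseq as filled points, ribosome profiling as open points and short lines for the mean of 2 replicates. Footprints of Tubb5 sit at 2865 and 2905 CPM in WT-shSCR cells and at 3562 to 3916 CPM in the other groups, and Tuba1b is lowest in WT-shSCR and highest in Arf-/- shSCR cells in both assays.

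Other measures moved with these results. Of 12 proliferation genes, which serve DNA replication and mitosis, 10 were called higher in the RNA of either comparison with WT-shSCR, and 12 and 10 in footprints. Among all genes tested, 7.93% were called in RNA and 18.5% in footprints after knockout, and 7.28% and 11.1% under the shARF label. The summed RNA level of the 12 proliferation genes was 1361 to 1371 CPM in WT-shSCR cells, 2399 to 2404 CPM under the shARF label and 2603 to 2711 CPM in Arf-/- shSCR cells. Birc5, a survivin that acts in the spindle checkpoint, rose most in knockout footprints, by a log2 of 1.62 ± 0.19, before Bub1 at 1.32 ± 0.20 and Ccna2 at 1.28 ± 0.14. This order of the groups is the one of the tubulin share, while the macrophage markers had the opposite order, which is also that of Tuba4a RNA by group mean. The part of cell division, of macrophages and of strain in the tubulin values was not tested. Fewer cells of a type and less RNA per cell cannot be told apart in these bulk samples.

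The knockout and the libraries labelled WT-shARF were then compared with each other, which needs no shared control. In RNA no tubulin gene was called, beside 2.57% of 10632 genes (273 genes). At an unadjusted p under 0.05, Tuba1a, Tuba1b, Tubb2a and Tubb5 were higher in Arf-/- shSCR cells, 4 of 10 beside 1740 of all genes, and DESeq2 called none of the 10. Tuba1b had a log2 of 0.48 ± 0.14 (edgeR, adjusted p = 0.102) and Tubb2a of 0.59 ± 0.22 (edgeR, adjusted p = 0.187).

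In footprints 3 genes were higher in Arf-/- shSCR cells than in the libraries labelled WT-shARF, beside 8.23% of 10941 genes. Tuba1b was at 337 and 419 CPM against 263 and 267 CPM, a log2 of 0.48 ± 0.10 (edgeR, adjusted p = 0.00445). Tuba1a, which is the main alpha tubulin of neurons and also widely expressed, was at 249 and 275 CPM against 192 and 200.2 CPM, a log2 of 0.39 ± 0.10 (edgeR, adjusted p = 0.0168). Tubb2b was at 101 and 111 CPM against 80.3 and 69.7 CPM, a log2 of 0.48 ± 0.14 (edgeR, adjusted p = 0.0418). The groups were apart in these 3 genes, in all of which at most 22.5% of the start positions are unique. How many of all genes tested were apart in this comparison was not counted. Of the genes with most of their positions unique, Tubb5 differed by 0.08 (95% interval -0.01 to 0.17), Tubb6 by 0.03 (-0.11 to 0.17), Tubb3 by -0.06 (-0.36 to 0.24) and Tuba4a by -0.41 (-0.77 to -0.06). Tuba4a was not called (edgeR, adjusted p = 0.162), with both knockout libraries below the others, and the same held for Tuba1c, at -0.37 ± 0.14. Without either library labelled WT-shARF, or without Arf-/- shSCR replicate 2, none of the 10 genes was called.

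**Figure D4:**
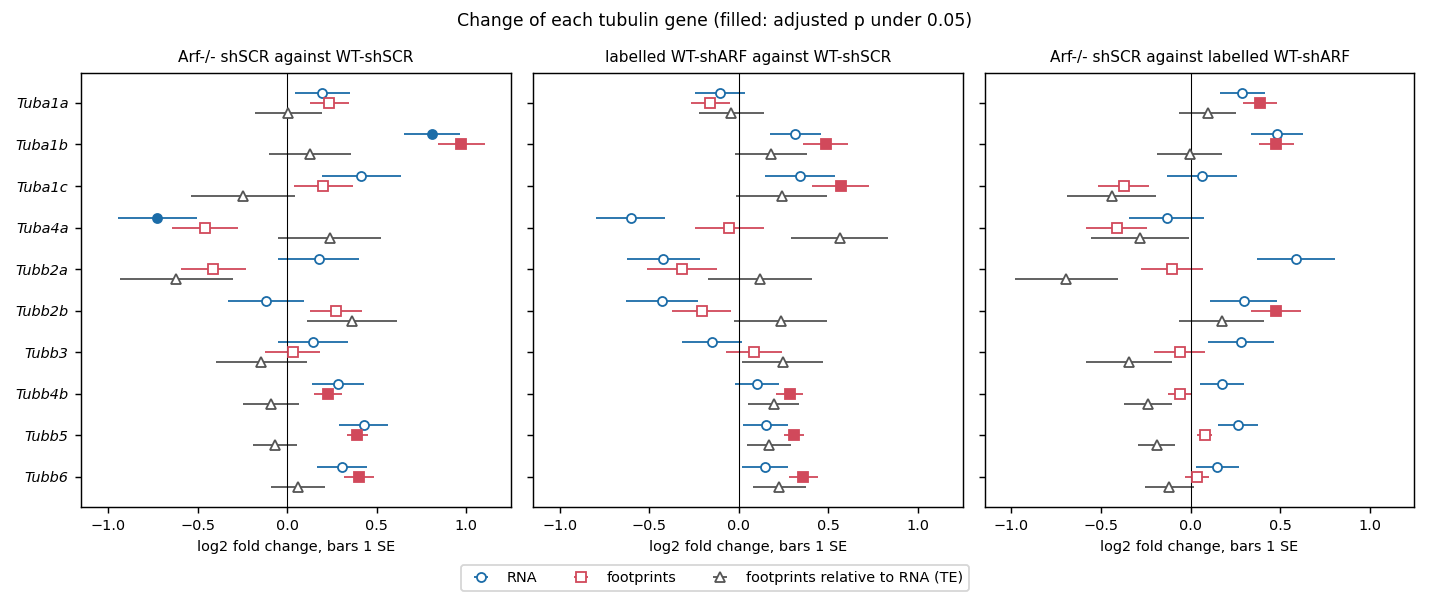
Log2 fold change of each tubulin gene in RNA (circles), footprints (squares) and TE (triangles) in the 3 comparisons, with bars of 1 SE. Filled points have an adjusted p under 0.05 by edgeR. Footprints of Tuba1b are filled in all 3 panels, with log2 values of 0.97, 0.48 and 0.48, and no triangle is filled.

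TE was tested as the change of footprints beyond that of RNA, over the 8 libraries of 2 groups. None of the 10 tubulin genes was called in any of the 3 comparisons, by edgeR or by DESeq2. Calls were rare among all genes, at 0.194% of 11314 genes after Arf knockout (22 genes), 0.0354% of 11289 genes in the libraries labelled WT-shARF (4 genes) and 0.043% of 11632 genes between these groups (5 genes). At an unadjusted p under 0.05 there were 773, 751 and 880 genes for these comparisons. Among them were no tubulin gene after knockout, Tuba4a in the libraries labelled WT-shARF, and Tubb2a between the groups.

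After Arf knockout the TE of Tubb5 differed by a log2 of -0.07 (95% interval -0.33 to 0.19), that of Tubb6 by 0.06 (-0.25 to 0.38) and that of Tubb4b by -0.09 (-0.41 to 0.23). These are the narrowest intervals of the family, along with that of Tuba1a, 0.01 (-0.38 to 0.39), and they are not adjusted for the number of genes. For Tuba1b, whose RNA and footprints both rose, TE differed by 0.13 (-0.35 to 0.60). Wider intervals were left for Tubb2a, at -0.62 (-1.27 to 0.03), and Tubb2b, at 0.36 (-0.16 to 0.88). A TE change of either sign is compatible with most of these intervals, and a change beyond a log2 of 0.33 for Tubb5 lies outside its own. The median over the 10 genes was -0.03, beside -0.04 over all genes tested. All these TE changes are relative to the other genes, since the scaling removes a shift shared by most mRNAs. The study reported higher protein synthesis in Arf-/- MEFs, and a shared shift of that kind would not show here.

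Under the shARF label, 9 of the 10 TE values were above 0, with a median of 0.21 beside 0.01 over all genes tested. Tubb5 was at 0.17 (95% interval -0.08 to 0.42), Tubb6 at 0.23 (-0.08 to 0.53) and Tubb4b at 0.19 (-0.10 to 0.49). Tuba4a had the largest value, 0.56 (0.01 to 1.12; edgeR, adjusted p = 0.743). Between Arf-/- shSCR cells and the libraries labelled WT-shARF the median was -0.21 beside 0.00, and Tubb2a had the largest value, -0.69 (-1.29 to -0.10; edgeR, adjusted p = 0.591).

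Within WT-shSCR cells the log2 ratio of footprint to RNA level, which has only a relative meaning, ranged over the 10 genes from -0.51 for Tuba1a to 0.46 for Tubb2b. These values lay at the percentiles 27.2 and 73.5 of 8223 genes with at least 10 counts in every library. Tubb5 was at 0.13, with the 4 pairings of an RNA and a footprint library between 0.08 and 0.19, at percentile 58.6. Tubb6 was lower, at -0.30 with pairings between -0.34 and -0.26, at percentile 36.3. Tubb2b had the highest ratio of the 10 genes in each of the 3 groups and Tuba1a the lowest.

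The genes of the autoregulation pathway were looked at next. The 13 genes listed, 1 of them under 2 symbols, were all in the files and tested. In RNA none was called in any comparison. In footprints 1 was called after knockout, beside 18.5% of all genes tested. It was Cnot1, the scaffold subunit of CCR4-NOT, which was higher by a log2 of 0.40 ± 0.14. Ttc5, the factor that recognizes nascent tubulin, had RNA levels of 40.7 and 20.4 CPM in WT-shSCR cells, 21.2 and 22.8 CPM under the shARF label and 24.4 and 22.5 CPM in Arf-/- shSCR cells. Its 2 WT-shSCR libraries differed more than the other groups did, and its RNA log2 fold change after knockout was -0.43 ± 0.32 (edgeR, adjusted p = 0.450). Scaper and Cnot11 had RNA changes of -0.33 ± 0.45 and 0.26 ± 0.23 after knockout and of -0.17 ± 0.41 and 0.31 ± 0.22 in the libraries labelled WT-shARF, none of them called. Their footprints were not called either, at -0.84 ± 0.40 and -0.06 ± 0.19 after knockout. Under the shARF label their footprints were at -1.09 ± 0.45 and -0.50 ± 0.22, again not called. Ttc5 footprints differed by 0.19 ± 0.38 after knockout and by 0.61 ± 0.38 under the shARF label. The TE of Ttc5 differed by 0.59 ± 0.50 and 1.14 ± 0.48 in the same order, and none of these was called.

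The chaperonin CCT folds newly made tubulin. All 8 of its subunit genes were called higher in footprints after knockout, beside 18.5% of all genes tested that were called. Their log2 values were 0.25 to 0.46, with Cct6a at 0.46 ± 0.08, Tcp1 at 0.46 ± 0.09 and Cct4 at 0.43 ± 0.09. In the libraries labelled WT-shARF 2 of 8 were called, beside 11.1% of all genes tested. These were Cct6a at 0.28 ± 0.08 and Cct5 at 0.24 ± 0.08. In RNA only Cct6a was called, at 0.53 ± 0.13 under the shARF label and at -0.59 ± 0.14 in Arf-/- shSCR cells against it. Of the 13 folding cofactor and prefoldin genes, Vbp1, a prefoldin subunit, was higher in knockout footprints (0.63 ± 0.18). Tbcc, the cofactor that completes the tubulin dimer, was lower there (-0.58 ± 0.20) and lower in the RNA of the libraries labelled WT-shARF (-0.74 ± 0.21), as was Tbcb, which binds alpha tubulin (-0.58 ± 0.17). The calls of this list stand beside 18.5% of all genes called in knockout footprints and 7.28% in RNA under the shARF label.

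Genes for microtubule-associated proteins went both ways. In RNA 4 of 25 tested rose and 3 fell in either comparison with WT-shSCR. The share of all genes called was 7.93% after knockout and 7.28% under the shARF label. Prc1, which bundles the central spindle, rose by a log2 of 1.33 ± 0.19 after knockout and 1.38 ± 0.17 in the libraries labelled WT-shARF, and Map1a, which stabilizes microtubules of axons and dendrites, fell by 1.31 and 1.11 on the log2 scale. Camsap3, which caps the minus end, was lower by -1.31 ± 0.30 after knockout, and Kif2c, a microtubule depolymerase of mitosis, was higher by 1.03 ± 0.19 in the libraries labelled WT-shARF. In footprints 6 of 24 rose and 4 fell after knockout, beside 18.5% of all genes called. In the libraries labelled WT-shARF 6 rose and 1 fell, beside 11.1% of all genes called. The largest were Mapre3, an end-binding protein, at -1.27 ± 0.35 after knockout, and Nusap1, a spindle protein, at 0.97 ± 0.25 in the libraries labelled WT-shARF. Between Arf-/- shSCR cells and these libraries, the footprints of Mapre3 and Mapre2 were lower, at -1.22 ± 0.31 and -1.16 ± 0.29.

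Among 15 tubulin-modifying enzymes tested in knockout footprints, Ttl, which adds the terminal tyrosine back to alpha tubulin, rose (1.45 ± 0.49), and the glutamylase Ttll7 (-1.04 ± 0.34) and the deacetylase Sirt2 (-0.80 ± 0.24) fell. In the libraries labelled WT-shARF 1 of 13 was called, Ttll7 at -1.29 ± 0.37. Of the 9 genes of the gamma-tubulin ring complex, which nucleates microtubules, Nedd1 was higher in footprints in both comparisons (0.69 ± 0.24 and 0.77 ± 0.26). The footprint calls of both lists stand beside 18.5% of all genes called after knockout and 11.1% under the shARF label. No gene of these 2 lists was called in RNA.

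Of 10 further tubulin genes, 3 had enough counts to be tested in RNA, and none was called there. Tubg1, the gamma tubulin of the centrosome, was higher in footprints in the libraries labelled WT-shARF, at 55.4 and 56.0 CPM against 37.0 and 31.0 CPM (log2 0.70 ± 0.21, edgeR adjusted p = 0.0262). In Arf-/- shSCR cells it was at 43.0 and 30.7 CPM, lower than under the shARF label (log2 -0.63 ± 0.19). Tuba8 and Tubd1 were tested in both assays and Tuba3b, Tubb4a and Tube1 in footprints, with no call. Tuba3a, Tubal3 and Tubb1 had at most 3 counts in any library.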

How the data were processed

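RNAseq and ribosome profiling counts of 12 libraries were used. Per the study's methods, the authors clipped adapters, removed barcodes and molecular identifiers with cutadapt and UMI-tools, removed rRNA and noncoding RNA reads with Bowtie2, used TopHat for alignment to mm10 and HTSeq to count reads on coding sequence. The versions and any removal of duplicates by molecular identifier are not given in the sources used here. The deposited files hold counts of reads for each gene, which the authors did not normalize. HTSeq's 5 summary rows were left out of all totals, and alignments that were not unique made up 79.2% to 81.4% of all in the RNAseq libraries and 46.3% to 52.9% in the ribosome profiling libraries.

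TMM factors, filterByExpr and the quasi-likelihood F test came from edgeR 4.0.16 in R 4.3.3. RNA and footprints were fitted over the 4 libraries of 2 groups and TE over 8, as the assay by condition interaction. A gene was called at a Benjamini-Hochberg adjusted p below 0.05 among all genes tested, and all 10 tubulin genes passed the filter in every fit. Intervals are 95% and use the t distribution with edgeR's degrees of freedom. DESeq2 1.42.0, RLE factors, other filters, all groups in 1 fit, a replicate block and each replicate left out, for TE in both assays at once, were alternatives. An exact permutation test of 2 against 2 cannot give a p under 0.33, so none was run. The fits were tested on simulated data. Replicates differed by more than counting error in every group, so none was counted as a duplicate.

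Unique start positions were found by a search of 20, 28 and 32 nt of each coding sequence in all GENCODE M21 transcripts on both strands, in Python 3.11.15. The planned search of the genome was not done, so copies outside annotated transcripts are missed. Levels are CPM scaled by TMM over the 6 libraries of an assay. Scaling in the levels and fits makes RNA, footprint and TE changes relative to the other genes, and the study's yeast spike-in was not used. Counting error and depth limit precision as the totals show. Since no removal of duplicates by molecular identifier is described, reads may not all stand for independent molecules.

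The tubulin genes, the gene lists and the tests were chosen with earlier results of these data known. Named are all 10 genes, Cdkn2a, Ttc5, Scaper, Cnot11, the further tubulin genes with enough reads, and of each other list at most the 3 largest called changes per comparison. Same-numbered replicates did not deviate together (correlations over genes of -0.118 to 0.0534 between groups within an assay and of 0.0444 to 0.0922 between the assays of a group), so the numbers were not taken to pair the samples.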

Additional observations from a re-analysis of the deposited data

Results flagged for a closer look

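Arf-/- shSCR cells and the libraries labelled WT-shARF differed in the footprints of 3 tubulin genes when compared directly, a contrast in which knockout, hairpin and strain cannot be told apart. Tuba1a was higher in the knockout by a log2 of 0.39, Tuba1b by 0.48 and Tubb2b by 0.48, with adjusted p-values by edgeR of 0.0168, 0.00445 and 0.0418. Both knockout libraries lay above both others in each gene, and the share of all genes tested that did so was not counted. Of the start positions of these genes, 5.96%, 2.19% and 22.5% were unique. Their RNA differed by a log2 of 0.29, 0.48 and 0.30 in the same direction, none of them called by edgeR (adjusted p of 0.272, 0.102 and 0.471). DESeq2 called Tuba1a and Tuba1b in footprints and not Tubb2b.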

How the results depend on the processing

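Every footprint call of the tubulin genes kept its direction under RLE factors, DESeq2, the other filters, all groups in 1 fit and the replicate block, and only Tubb2b, between Arf-/- shSCR cells and the libraries labelled WT-shARF, lost its call (DESeq2). In RNA after knockout, Tuba1b was called alone (1 gene) with RLE factors, DESeq2 and the replicate block, and Tubb5 was called as well without a filter and with all groups in 1 fit. The same comparison gave 467 calls among all genes with DESeq2. In RNA under the shARF label there were 318 calls with DESeq2 and 497 with all groups in 1 fit, and in knockout footprints 1305 with DESeq2. Without a filter, RNA between Arf-/- shSCR cells and the libraries labelled WT-shARF gave 617 calls, 1 of them a tubulin gene (Tuba1b). No alternative called a tubulin gene in TE. Over all genes, TE calls after knockout numbered 75 with DESeq2, 123 without a filter, 34 with at least 10 counts in every library and 52 with all groups in 1 fit. Under the shARF label they numbered 50, 40, 13 and 0, and between the groups 18 with DESeq2 and 77 without a filter. Without a filter the median TE change of the 10 genes after knockout was 0.10, and the signs of Tubb4b (0.040), Tubb5 (0.061) and, between the groups, Tuba1b (0.034, and 0.014 with all groups in 1 fit) reversed. The cause of these changes was not tested.

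With the replicate block, Tuba4a RNA lost its call after knockout (1 tubulin gene left) and gained one under the shARF label (1 tubulin gene), TE calls numbered 39 under the shARF label and 8 between the groups, and Tuba1a TE after knockout went to -0.0030. The block changed no other call of a tubulin gene. Same-numbered RNAseq samples of Arf-/- shSCR and the other groups correlated at -0.118, so a block with crossed numbers was added after the data were seen. It gave 1438 calls after knockout, 3 of them tubulin genes with Tubb5 gained, and 832 between the groups, 2 of them tubulin genes (Tuba1b and Tubb5).

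In RNA and footprints 1 library was left out at a time. In TE the RNAseq and ribosome profiling libraries of the same replicate number were left out together, although these numbers were not taken to pair the samples. The lone sample is then assumed to vary like the other group. Calls among all genes then ranged in RNA over 222 to 790 after knockout, 274 to 883 under the shARF label and 6 to 798 between the groups. In footprints they ranged over 0 to 1193, 614 to 1067 and 0 to 781, and in TE over 6 to 51, 7 to 24 and 1 to 125. Tubulin genes called ranged in RNA over 0 to 2, 0 to 1 and 0 to 2, and in footprints over 0 to 4, 3 to 4 and 0 to 3. The median of the 10 genes ranged in RNA over -0.040 to 0.10 under the shARF label and 0.16 to 0.34 between the groups, in footprints between the groups over 0.028 to 0.056, and in TE over 0.11 to 0.27 under the shARF label and -0.26 to -0.062 between the groups. Genes that were not called and changed sign were, in RNA after knockout, Tubb2a (-0.14 to 0.45), Tubb2b (-0.24 to 0.052) and Tubb3 (-0.13 to 0.38), under the shARF label Tuba1a (-0.26 to 0.092), and between the groups Tuba1c (-0.18 to 0.29) and Tuba4a (-0.35 to 0.073). In footprints they were Tubb3 after knockout (-0.12 to 0.18), Tuba4a under the shARF label (-0.14 to 0.051), and Tubb2a (-0.26 to 0.11) and Tubb3 (-0.23 to 0.083) between the groups. In TE they were, after knockout, Tuba1a (-0.097 to 0.16), Tuba1b (-0.082 to 0.46), Tuba1c (-0.47 to 0.086), Tubb4b (-0.14 to 0.018) and Tubb5 (-0.12 to 0.0037). Under the shARF label they were Tuba1a (-0.22 to 0.068), Tuba1b (-0.099 to 0.47), Tuba1c (-0.026 to 0.50) and Tubb2a (-0.20 to 0.48), and between the groups Tuba1b (-0.086 to 0.096).

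The Tubb5 share of the summed level in WT-shSCR RNA, 12.2% per unique kb, was 54.5% by coding length, 8.20% with 20-nt reads, 13.9% with 32-nt reads and 27.7% among the genes in the files, a search added after the data were seen. The alpha share was 13.0%, 71.9%, 64.1% and 53.8% in the same order.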

Other observations

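Tuba3b, an alpha tubulin gene outside the 10 genes of the report, had 8 to 24 footprint counts in each of the 6 ribosome profiling libraries and 0 or 1 RNA counts in each of the 6 RNAseq libraries. Tubb4a, a beta tubulin of oligodendrocytes and neurons, had 16 to 28 footprint counts and 1 to 7 RNA counts per library. Tuba3a had no footprint count in any library. Whether these footprints come from these genes or from relatives with a similar sequence was not tested.

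The share of Tuba1b in the summed alpha tubulin level per unique kb was lowest in WT-shSCR cells in both assays, at 57.0% and 59.7% in RNA and 57.2% and 67.2% in footprints. It was 66.4% and 68.5% in RNA and 72.9% and 74.6% in footprints of Arf-/- shSCR cells. The libraries labelled WT-shARF lay between, at 65.3% and 62.1% in RNA and 69.1% and 68.8% in footprints. The groups did not overlap, and the share was not tested. Its size depends on the length used, since only 2.19% of the start positions of Tuba1b were unique. By coding length Tuba1a stood above Tuba1b in WT-shSCR RNA, at 229 ± 40.3 against 146 ± 5.57 CPM per kb (SD, n = 2).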
